A study of Mus musculus with 7 samples.

Results

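The microglia genes of the embryonic mouse retina are described here as 10 rows of a bulk RNA-seq count table: C1qa, C1qb, C1qc, Csf1r, Cx3cr1, Aif1, P2ry12, Tyrobp, Trem2 and Ptprc. They were chosen by name, each as the row that carries its symbol, among 48440 listed rows, and all 10 passed the filter on low counts that left 20019 genes. Retinas were taken at embryonic day 16 and pooled by genotype into 7 libraries. The controls were 1 library of Chx10-Cre retinas (WT), the heterozygotes were 3 libraries of Chx10-Cre;Ptbp1lox/WT retinas (Het), and the knockouts were 3 libraries of Chx10-Cre;Ptbp1lox/lox retinas (KO). Every library, WT included, carries the Chx10-Cre transgene, which is active in retinal progenitors and cuts the floxed promoter and first exon of Ptbp1 in those cells and their descendants. The pools held 6 retinas for WT, 5, 5 and 6 for Het1, Het2 and Het3, and 4, 4 and 6 for KO1, KO2 and KO3. WT has no replicate, so its values stand beside the others without a test.

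Microglia are the resident macrophages of the retina and brain. They come from progenitors of the yolk sac that enter the neural tissue in the embryo, and so they do not arise from the Chx10-Cre lineage. In the developing retina they clear dying cells and contact growing vessels and neurons, and their upkeep depends on the receptor Csf1r and its ligands. In a bulk sample, fewer cells of a type and less RNA per cell cannot be told apart, and this holds for every value given here.

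Ptbp1, the targeted splicing regulator, was measured at 381 CPM in WT, at 210, 219 and 234 CPM in Het1, Het2 and Het3, and at 27.9, 6.04 and 46.9 CPM in KO1, KO2 and KO3. It fell by 3.04 on the log2 scale between Het and KO (edgeR quasi-likelihood test, adjusted p = 0.0316). Libraries held between 120593979 and 171117305 counts. CPM is a gene's count scaled to a common library size, here the TMM effective size. Het1 stood apart from the other libraries by genes of muscle, pigment epithelium and mesenchyme. KO1 and KO2 stood apart by low levels of most vessel, blood and border macrophage genes. Without Het1 the members' KO to Het ratio given next was 1.40, and without KO1, KO2 or KO3 it was 1.57, 1.35 and 1.46. A gene is called when its adjusted p is below 0.05 and its fold change exceeds 20% in either direction, and 1445 of 20019 genes, 7.22%, were called.

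Together the microglia genes made up 54.8 CPM in WT, 54.7, 51.3 and 72.9 CPM in Het1, Het2 and Het3, and 73.9, 101 and 86.9 CPM in KO1, KO2 and KO3. The 3 KO sums lay above the 3 Het sums, although Het3 and KO1 were within their counting error of each other. Before TMM scaling, the share of counts was 72.4 CPM in Het3 (95% Wilson interval 71.0 to 73.7) and 73.2 CPM in KO1 (71.8 to 74.7), and these intervals cover counting error only. The mean sum was 59.7 ± 11.6 CPM in Het (SD, n = 3) and 87.2 ± 13.4 CPM in KO (SD, n = 3), a ratio of 1.46. Het was at 1.09 of WT.

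All 10 members had a positive fitted log2 fold change in KO against Het, from 0.32 for P2ry12 to 0.71 for Aif1, with a median of 0.56. The median of all genes tested was -0.0047, and 49% of them were positive. Cx3cr1 and Ptprc were called higher, 2 of 10 members, where 4.01% of all genes were called higher in KO and 3.21% lower. The other 8 members had adjusted p from 0.0711 to 0.388 in the same test. Before adjustment, 9 of the 10 were higher with a p under 0.05, Trem2 being the exception, against 15.1% of all genes. The lowest KO library exceeded the highest Het library in C1qa, Csf1r, Cx3cr1, Aif1 and Ptprc, against 18.6% of all genes. The number of members called depended on the fit. DESeq2 called 9 higher, all but Trem2, and of 17813 genes it called 1061 higher in KO and 1009 lower. Leaving out any 1 of the 6 Het and KO libraries left 0 or 1 called with edgeR.

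**Figure D1:**
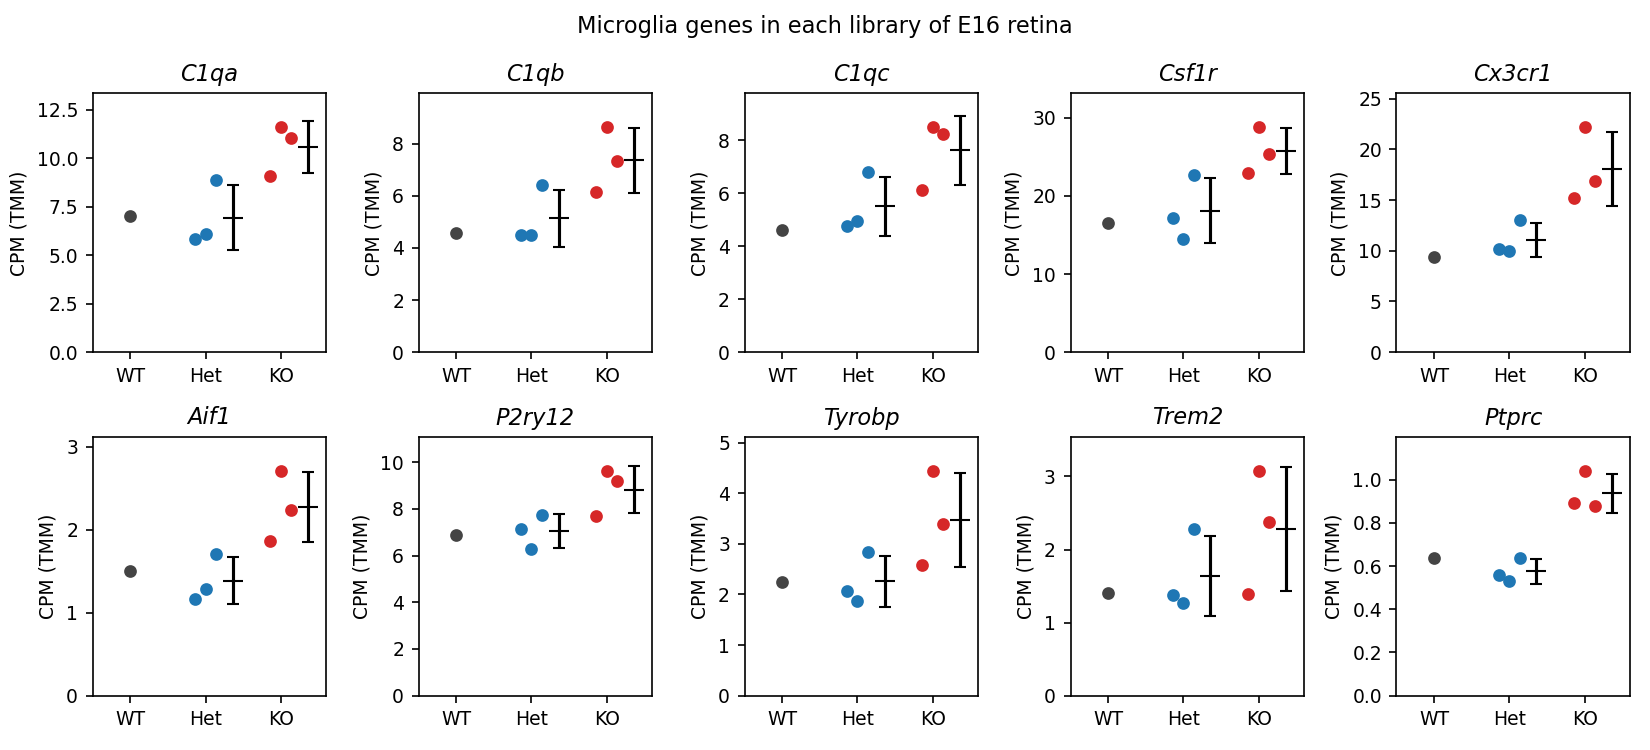
CPM (TMM scaled, linear axis from 0) of each microglia gene in the WT, Het and KO libraries. Each point is 1 library, in the order of its number, and the black mark and bar give the mean and SD of 3 libraries. KO2 is the highest of the 7 libraries in all 10 panels and Het3 is the highest Het library in all 10.

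**Figure D2:**
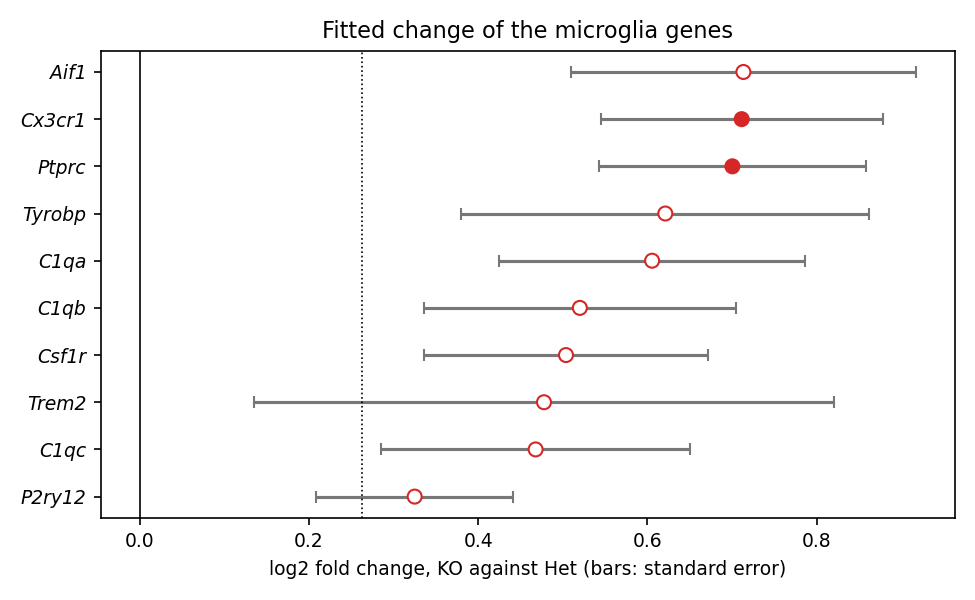
Fitted log2 fold change of each microglia gene in KO against Het, with bars of 1 standard error. Filled points are the called genes Cx3cr1 and Ptprc, the dotted line is the 20% limit (0.263 on the log2 scale), and all 10 points lie to its right.

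KO2 was the highest library for all 10 members, and Het3 was the highest Het library for all 10. The lowest library was Het2 for 6 members, Het1 for 2 and WT for 2. WT was below every KO library for 9 members, the exception being Trem2, and it lay within the range of the Het libraries for 8, being below all of them for C1qc and Cx3cr1. Over the 45 pairs of members, the Pearson correlation of log2(CPM + 0.5) across the 7 libraries had a median of 0.935. It ran from 0.691 for Trem2 with Ptprc to 0.980 for C1qb with C1qc. These 7 points share their libraries and the genotype difference, so the values are descriptions.

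C1qa, C1qb and C1qc encode the A, B and C chains of C1q, the complement component that recognises its targets and starts the classical cascade, and in neural tissue microglia are the main source of all 3. The genes lie close together on the minus strand of chromosome 4 (GRCm38), C1qb at 136880129 to 136886187, C1qc at 136889804 to 136893065 and C1qa at 136895917 to 136898803. C1qa was at 6.99 CPM in WT, at 5.85, 6.09 and 8.87 CPM in the 3 Het libraries and at 9.06, 11.6 and 11.03 CPM in the 3 KO libraries. Its groups did not overlap, with KO1 just above Het3, and its log2 fold change was 0.61 (SE 0.181, edgeR adjusted p = 0.0790). C1qb was at 4.58 CPM in WT, at 4.51, 4.50 and 6.40 CPM in Het and at 6.14, 8.63 and 7.33 CPM in KO. KO1 was below Het3, so the groups overlapped, and the log2 fold change was 0.52 (SE 0.184, edgeR adjusted p = 0.118). C1qc was at 4.61 CPM in WT, at 4.77, 4.96 and 6.80 CPM in Het and at 6.14, 8.50 and 8.24 CPM in KO. It showed the same overlap, with a log2 fold change of 0.47 (SE 0.182, edgeR adjusted p = 0.146). Summed, the 3 chains went from 17.6 ± 3.89 CPM in Het to 25.6 ± 3.80 CPM in KO (SD, n = 3 each), a ratio of 1.45.

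Per kilobase of exon, C1qa was 1.41 ± 0.0469 times C1qb in Het and 1.51 ± 0.0908 times in KO (SD, n = 3). WT stood at 1.60. C1qb was 1.65 ± 0.0375 times C1qc in Het and 1.72 ± 0.123 times in KO. Both KO ranges overlapped the Het ranges. C1qa per C1qc did not overlap, at 2.28, 2.28 and 2.42 in Het and 2.74, 2.53 and 2.49 in KO. WT was above all of them at 2.82. The annotated exon unions are 1040, 1088 and 1931 bases for C1qa, C1qb and C1qc. In CPM the Het mean of C1qb, 5.14, was below that of C1qc, 5.51. These per-kilobase ratios therefore do not give the relative number of transcripts.

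Of the 10 members, 7 matched the RefSeq promoter table (GRCm38.p6), and the windows of that table, from 250 bases before to 50 bases after the start, were searched on both strands for letters that myeloid transcription factors are known to bind. The core GAGGAA of PU.1, the factor that sets myeloid identity, was found in the promoters of 5 of these 7 genes (C1qb, C1qc, Aif1, Trem2 and Ptprc) and of 31.3% of all 27025 genes in the table. The longer form GAGGAAGT, which contains the core, was found in 1 of 7 (C1qc) and in 3.69% of all genes, and the composite of PU.1 and IRF, GGAA and GAAA with 2 bases between them, in 0 of 7 and in 3.16%. The RUNX core TGTGGT was found in 2 of 7 (C1qc and Cx3cr1) and in 18.9%. These are matches of letters in a window and no binding was measured. Shown here are the 250 bases before the start of the pair that varied most alike, C1qb and C1qc, and of the called genes, Ptprc and Cx3cr1, each written 5′ to 3′ along the gene with matches to GAGGAA or TGTGGT, or to their reverse complements, in capitals. They lie at chr4:136886201-136886450, chr4:136892915-136893164, chr1:138175306-138175555 (the first of 2 Ptprc windows) and chr9:120068297-120068546, all on the minus strand.
C1qb: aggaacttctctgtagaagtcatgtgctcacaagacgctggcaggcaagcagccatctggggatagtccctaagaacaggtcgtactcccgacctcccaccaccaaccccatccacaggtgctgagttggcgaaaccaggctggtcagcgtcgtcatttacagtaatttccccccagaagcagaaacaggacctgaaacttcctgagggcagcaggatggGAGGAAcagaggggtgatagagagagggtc
C1qc: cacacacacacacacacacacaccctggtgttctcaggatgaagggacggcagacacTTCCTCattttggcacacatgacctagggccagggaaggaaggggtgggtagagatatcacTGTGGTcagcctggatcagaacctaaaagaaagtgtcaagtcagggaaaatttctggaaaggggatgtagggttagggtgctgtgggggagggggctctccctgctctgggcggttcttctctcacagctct
Ptprc: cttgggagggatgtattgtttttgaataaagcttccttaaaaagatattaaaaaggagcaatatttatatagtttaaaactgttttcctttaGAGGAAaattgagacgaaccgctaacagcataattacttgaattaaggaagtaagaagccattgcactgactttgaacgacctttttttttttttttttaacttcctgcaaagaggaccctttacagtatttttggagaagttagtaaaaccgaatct
Cx3cr1: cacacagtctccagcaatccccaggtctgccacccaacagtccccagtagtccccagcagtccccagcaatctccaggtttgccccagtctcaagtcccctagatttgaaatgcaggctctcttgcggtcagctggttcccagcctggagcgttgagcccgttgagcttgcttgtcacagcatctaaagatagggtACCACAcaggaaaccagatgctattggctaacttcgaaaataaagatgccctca

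Ptprc encodes CD45, the receptor tyrosine phosphatase present on all nucleated blood cells. It spans 138062861 to 138175708 on chromosome 1 and had the fewest counts of the members, between 63 and 137 a library. Its level was 0.639 CPM in WT, 0.559, 0.529 and 0.639 CPM in Het, and 0.890, 1.04 and 0.878 CPM in KO. WT and Het lay together and all 3 KO libraries lay above them. The gene rose by 0.70 on the log2 scale (SE 0.158, edgeR adjusted p = 0.0386), and the adjusted p was between 0.0510 and 0.127 when any 1 Het or KO library was left out.

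Aif1 encodes IBA1, the calcium-binding, actin-associated protein that is the usual stain for microglia, and lies at 35170991 to 35176068 on chromosome 17. It was at 1.51 CPM in WT, 1.17, 1.28 and 1.71 CPM in Het and 1.87, 2.71 and 2.24 CPM in KO. The groups did not overlap, and its log2 fold change of 0.71 was as large as that of Cx3cr1 but with a wider error (SE 0.204, edgeR adjusted p = 0.0711).

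Trem2, a lipid-sensing receptor, and Tyrobp, the DAP12 adaptor through which Trem2 signals, form a receptor complex that was measured at both ends. Tyrobp (chromosome 7, 30413760 to 30417585) was at 2.24 CPM in WT, 2.08, 1.86 and 2.83 CPM in Het and 2.59, 4.45 and 3.39 CPM in KO. Only KO1 fell inside the Het range, and the log2 fold change was 0.62 (SE 0.241, edgeR adjusted p = 0.144). Trem2 (chromosome 17, 48346401 to 48354147) was at 1.41 CPM in WT, 1.37, 1.27 and 2.27 CPM in Het and 1.40, 3.08 and 2.37 CPM in KO. KO1 lay at the level of WT, Het1 and Het2, and Het3 was close to KO3. Trem2 had the widest error of the members, with a log2 fold change of 0.48 (SE 0.343, edgeR adjusted p = 0.388). Leaving out KO2 gave 0.20, KO1 0.73 and Het3 0.79. Tyrobp exceeded Trem2 by 10.5 ± 1.07 times per kilobase in Het and by 11.7 ± 1.78 times in KO (SD, n = 3), with WT at 11.8. In CPM the Het means were 2.26 for Tyrobp and 1.64 for Trem2. Most of the per-kilobase ratio comes from their annotated exon unions, 667 and 4946 bases, so it does not give the relative number of transcripts.

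Cx3cr1 is the receptor for the neuronal chemokine fractalkine and lies at 119901616 to 120069879 on chromosome 9. It was at 9.35 CPM in WT, 10.1, 10.01 and 13.01 CPM in Het, and 15.2, 22.2 and 16.9 CPM in KO. All KO libraries were above all Het libraries, and WT was the lowest of the 7. Its mean was 11.1 ± 1.70 CPM in Het and 18.1 ± 3.65 CPM in KO (SD, n = 3), and it rose by 0.71 on the log2 scale (SE 0.167, edgeR adjusted p = 0.0429). When 1 library was left out the adjusted p was between 0.0403 and 0.137, and the call held only without KO1.

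P2ry12, the ADP receptor that steers microglial processes and marks their resting state, lies at 59216272 to 59262871 on chromosome 3. It was at 6.88 CPM in WT, 7.12, 6.28 and 7.73 CPM in Het, and 7.67, 9.63 and 9.17 CPM in KO. KO1 and Het3 were at the same level, and the log2 fold change of 0.32 was the smallest of the members (SE 0.117, edgeR adjusted p = 0.121). Per kilobase, Cx3cr1 stood at 0.804, 0.901 and 0.951 times P2ry12 in Het and at 1.12, 1.30 and 1.04 times in KO, with WT at 0.768. The KO ratios were all above the Het ratios, and no test was made of this difference.

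Csf1r, the receptor for CSF1 and IL-34 on which microglia depend, was the most abundant member and lies at 61100598 to 61132149 on chromosome 18. It was at 16.6 CPM in WT, 17.2, 14.5 and 22.7 CPM in Het, and 22.9, 28.8 and 25.4 CPM in KO. The groups did not overlap, though Het3 and KO1 nearly met, and the log2 fold change was 0.50 (SE 0.168, edgeR adjusted p = 0.103).

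Exons of 3 members are shared with a gene on the other strand in the GENCODE M21 annotation, and the strand setting of the counting is not given in the sources used here. Csf1r shares 873 bases, 15.1% of its exons, with Hmgxb3, whose level was between 47.6 and 49.8 CPM in the 7 libraries with a log2 fold change of 0.01. P2ry12 shares 9 bases with Med12l, which was at 23.4 to 24.8 CPM in Het and 27.8 to 29.4 CPM in KO with a log2 fold change of 0.24. Cx3cr1 shares 78 bases, 1.73% of its exons, with Gm33858, which was not analysed here. The part of these partners in the 3 genes' counts was not tested.

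On the scale of CPM per kilobase of exon, the Het means were ordered C1qa (6.67), C1qb (4.72), Tyrobp (3.39), Csf1r (3.14), C1qc (2.85), P2ry12 (2.77), Cx3cr1 (2.45), Aif1 (0.906), Trem2 (0.331) and Ptprc (0.0314). The SDs of the neighbours from Tyrobp to Cx3cr1 ran from 0.286 to 0.764. These SDs are between libraries, over which the members rose and fell together, so they cannot decide the order of these 5. The order was not tested. In KO the order was C1qa (10.2), C1qb (6.77), Tyrobp (5.21), Csf1r (4.45), Cx3cr1 (4.02), C1qc (3.95), P2ry12 (3.47), Aif1 (1.49), Trem2 (0.461) and Ptprc (0.0511), with Cx3cr1 the member that changed place. Ptprc and Trem2 have long annotated exon unions, 18313 and 4946 bases, which lowers their per-kilobase level.

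The 8 genes most like the members across the 7 libraries, by the Pearson correlation of log2(CPM + 0.5) with the members' mean z-score among 15422 genes, were Laptm5 (0.998), Nckap1l, C3ar1, Mpeg1, C5ar1, Adap2, Sla and Gpr34 (0.979). Laptm5 is a lysosomal membrane protein of blood cells, Nckap1l the blood-cell subunit of the WAVE actin complex, C3ar1 and C5ar1 the receptors for complement fragments, and Gpr34 a microglial lysophospholipid receptor. Mpeg1, the macrophage perforin, was at 6.52 CPM in WT, 6.63, 6.22 and 9.47 CPM in Het, and 12.1, 18.6 and 14.5 CPM in KO. It rose by 1.02 on the log2 scale (SE 0.213, edgeR adjusted p = 0.0316) and was the only one of the 8 called, a call lost without Het1, Het2, KO2 or KO3. Of all genes, 4.01% were called higher in KO. The 8 were chosen for likeness to the members over these same libraries, and the members were higher in KO. A rise in KO was therefore part of the choice, and the call of Mpeg1 is no separate evidence. When Het1 was left out, 2 of the 8 stayed among the first 8, Laptm5 and Nckap1l.

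Among 15 tested genes of a second microglia list, 13 had a positive log2 fold change, with a median of 0.42. With edgeR 2 were called higher and 0 lower, and DESeq2 called 5 of the list higher and 0 lower. Siglech, a lectin of microglia, was at 1.12 CPM in WT, 1.12, 1.2 and 1.34 CPM in Het, and 1.70, 1.72 and 1.85 CPM in KO, and it rose by 0.52 (SE 0.125, edgeR adjusted p = 0.0445). Its KO range did not overlap its Het range, but its call was lost whichever Het or KO library was left out (adjusted p from 0.0719 to 0.133). The list as a whole then had 0 calls without Het1, Het2, KO2 or KO3 and 1 without Het3 or KO1. The abundant genes Ctss (a lysosomal protease) and Olfml3 (a secreted matrix protein) had log2 fold changes of 0.54 and 0.07 and were not called (edgeR adjusted p = 0.0714 and 0.732).

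Of 10 myeloid transcription factors, 1 was called higher and 0 lower, with a median of 0.11. Irf8, which microglia need for their development, was at 2.15 CPM in WT, 1.996, 1.79 and 2.45 CPM in Het, and 2.99, 3.25 and 3.34 CPM in KO. Its groups did not overlap and it rose by 0.62 (SE 0.141, edgeR adjusted p = 0.0393). Of the 6 fits that leave out 1 Het or KO library, the call held only in the one without Het3, with adjusted p from 0.0496 to 0.114. Among the most abundant of the list, Maf and Sall1 had log2 fold changes of 0.11 and 0.24 and were not called. Both are also expressed outside the myeloid lineage.

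Of 30 genes expressed across leukocytes, 24 had a positive log2 fold change with a median of 0.39. EdgeR called 0 of them in either direction. DESeq2 called 5 higher and 1 lower, where it called 1061 of 17813 genes higher and 1009 lower. The most abundant genes of this list pointed different ways: Laptm5 had 0.51, Coro1a (an actin regulator) -0.05 and Cyba (a subunit of the phagocyte oxidase) -0.37. Of 13 genes that signal downstream of Trem2 and Tyrobp or related receptors, 11 were positive with a median of 0.31 and 0 were called, and the abundant adaptor Skap2 and kinases Lyn and Syk had 0.01, -0.16 and -0.14. Of 13 other complement genes 6 were positive and 0 were called by edgeR, while DESeq2 called 2 higher. The median was -0.06, and the most abundant, the C1 inhibitor Serping1, had -0.06. This list includes C3ar1 and C5ar1, named above for their likeness to the members, with 0.99 and 0.92.

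Of 11 genes for ligands and survival signals of microglia, 1 was called higher and 1 lower. Cd47, the signal that restrains engulfment, was at 62.4 to 63.7 CPM in Het and 74.1 to 80.0 CPM in KO and rose by 0.29 (SE 0.0348, edgeR adjusted p = 0.00757). Tgfb2, a member of the TGF-beta family, was at 163 to 182 CPM in Het and 118 to 132 CPM in KO and fell by 0.48 on the log2 scale (SE 0.0573, edgeR adjusted p = 0.00774). Apoe, a lipid carrier, had a log2 fold change of -0.21 (edgeR adjusted p = 0.534). The ligands of the receptors above, named after their values were seen, were not called: Csf1 had -0.08, Il34 -0.04 and Cx3cl1, which encodes fractalkine, 0.13.

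**Figure D3:**
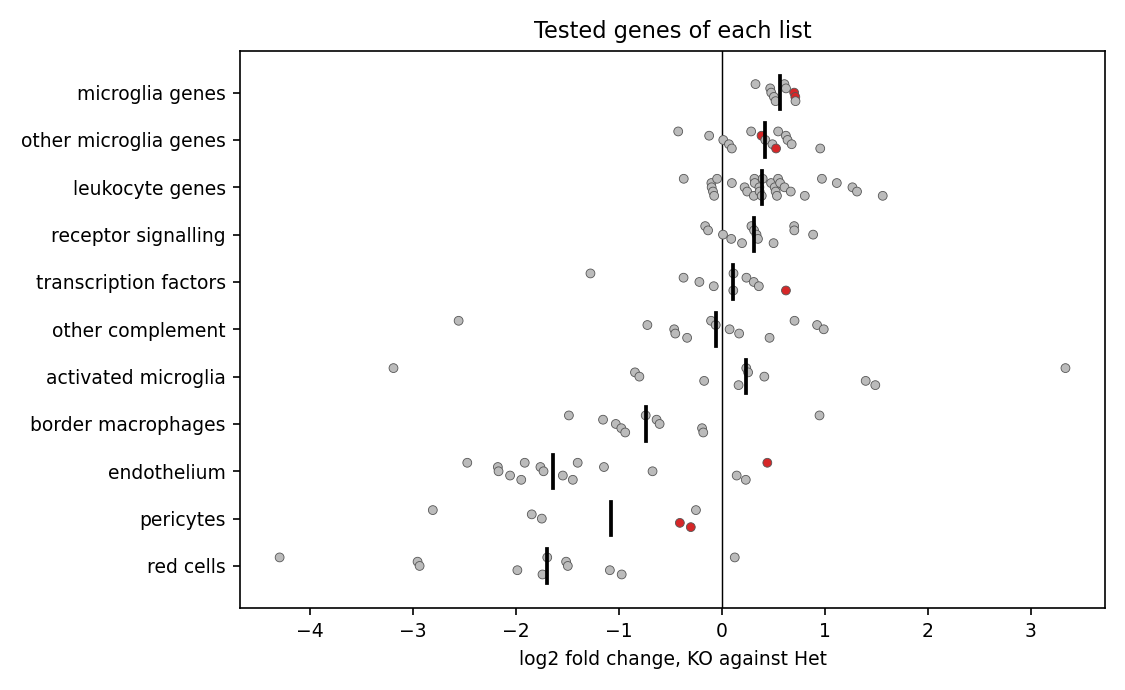
Log2 fold change in KO against Het of each tested gene, by list, with called genes in red and the median of each list as a black bar. The medians are 0.56 for the microglia genes and 0.42 for the other microglia genes, and -0.74 for border macrophages, -1.64 for endothelium and -1.70 for red cells.

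Genes of activated microglia were measured as a separate list of 11 tested genes, of which 7 had a positive log2 fold change and 0 were called. The median was 0.24. Igf1, the most abundant, had a log2 fold change of 0.16 (edgeR adjusted p = 0.262). Itgax and Cst7, singled out after their values were seen, had fitted log2 fold changes of 1.49 and 1.40 at levels between 0.0336 and 0.562 CPM, and were not called (edgeR adjusted p = 0.156 and 0.111). Gpnmb and Spp1 of the same list, also named after their values were seen, had -3.19 and -0.85 and were not called. Gpnmb was at 48.5 CPM in Het1 and at 1.19 and 4.88 CPM in Het2 and Het3.

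Other immune cells were looked for with their own markers. The T cell marker Cd3d was at 0 in all 7 libraries, and 0 of 4 tested lymphocyte genes were called. Cd4, which macrophages and neural tissue can also express, was the most abundant of them with a log2 fold change of 0.21. Monocyte and neutrophil genes summed to between 0.309 and 1.27 CPM over 16 genes, and S100a8 was called lower, at 0.0824, 0.185 and 0.0527 CPM in Het and at 0, 0 and 0.00751 CPM in KO. That call rested on few counts and held only without Het1 among the fits that leave out 1 library. Cxcr2 had the highest level of that list with -0.39. Of 6 tested genes of MHC class II presentation 1 was called lower, H2-Ab1, at 2.56, 2.07 and 0.0923 CPM in Het and 0.0453, 0.0912 and 0.0225 CPM in KO, and its call held only when Het3 was the library left out. H2-DMa, the most abundant, had a log2 fold change of -0.01. Mast cell genes, led by Cpa3, summed to at most 1.201 CPM, with 0 of 4 tested genes called.

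Border macrophages are the perivascular and meningeal relatives of microglia and share C1q, Csf1r and Ptprc with them. Their markers did not follow the microglia genes across the KO libraries. Their 11 marker genes summed to 25.8 CPM in WT, 18.5, 17.7 and 41.3 CPM in Het, and 5.03, 8.42 and 39.5 CPM in KO. KO1 and KO2 were the lowest libraries and Het3 and KO3 the highest. The most abundant, the scavenger receptor Stab1, had a log2 fold change of -0.19 (edgeR adjusted p = 0.847), and 0 of 11 were called, with a median of -0.74 over the list. Without KO3 the median was -3.24 and 6 of 11 were called lower, and without Het3, KO1 or KO2 it was -0.33, -0.35 and -0.39 with 0 called. Without Stab1 the sum was 14.7 CPM in WT, 10.97, 10.6 and 24.3 CPM in Het, and 1.09, 1.40 and 22.6 CPM in KO. F13a1 and the mannose receptor Mrc1, named after their values were seen, were at 0.136 and 0.355 CPM in KO1 and at 0.160 and 0.403 CPM in KO2. Csf1r was at 22.9 and 28.8 CPM in those libraries, above all 3 Het libraries. In KO3, where F13a1 was at 8.18 CPM, Csf1r was at 25.4 CPM, between KO1 and KO2. Within Het, the library with the most border macrophage signal, Het3, was also the highest for all 10 members. The part of border macrophages in the members' values was not tested in any library.

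The summed vessel and blood genes, Kdr aside, were also lowest in KO1 and KO2. The 11 tested red cell genes had a median log2 fold change of -1.70, with 0 called and 5 for which every KO library was below every Het library, against 17.7% of all genes. Both values turned on KO3: without it the median was -3.37 and 9 genes were called lower. Hbb-bs, an adult beta-globin gene, was at 169 CPM in WT, 147, 102 and 275 CPM in Het, and 16.7, 10.4 and 156 CPM in KO. The 16 endothelial genes had a median of -1.64, with 0 called lower, and without KO3 a median of -3.33 with 12 called lower. Kdr, a VEGF receptor that retinal progenitors also express, held 90.7% of their summed level and rose by 0.44 (SE 0.0748, edgeR adjusted p = 0.0187), a call lost without Het2 or Het3. Without Kdr the sum was 54.2, 35.5 and 70.1 CPM in Het and 26.1, 21.5 and 45.5 CPM in KO, with WT at 49.5. Of the 16 endothelial genes 3 had a positive log2 fold change, Kdr, Cldn5 and Egfl7. Cldn5 and Egfl7, named after their values were seen, had 0.23 and 0.14 and were not called. Cldn5 was at 11.04, 11.31 and 13.24 CPM in Het and 14.45, 12.08 and 15.22 CPM in KO. Egfl7 was at 3.885, 4.365 and 5.226 CPM in Het and 5.222, 4.491 and 5.157 CPM in KO. Among 6 pericyte genes 2 were called lower, Notch3 at 77.5 to 83.7 CPM in Het and 62.6 to 66.2 CPM in KO, and Pdgfrb at 22.2 to 23.5 CPM in Het and 15.9 to 19.2 CPM in KO. The call of Notch3 held whichever library was left out, and that of Pdgfrb only without Het1 or KO3. Notch3 held 69.6% of the summed level of the pericyte genes. Rgs5, Kcnj8, Abcc9 and Cspg4, named after their values were seen, had -1.75, -2.81 and -0.25 for the last 3 and were not called. Rgs5 had -1.85, at 10.28, 5.254 and 15.65 CPM in Het and 0.551, 0.274 and 7.84 CPM in KO. Kcnj8 and Abcc9 were also lowest in KO1 and KO2. The part of vessels and blood in the microglia genes' values was not tested, and those values were highest in KO2, where Hbb-bs and the endothelial sum without Kdr were lowest.

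**Figure D4:**
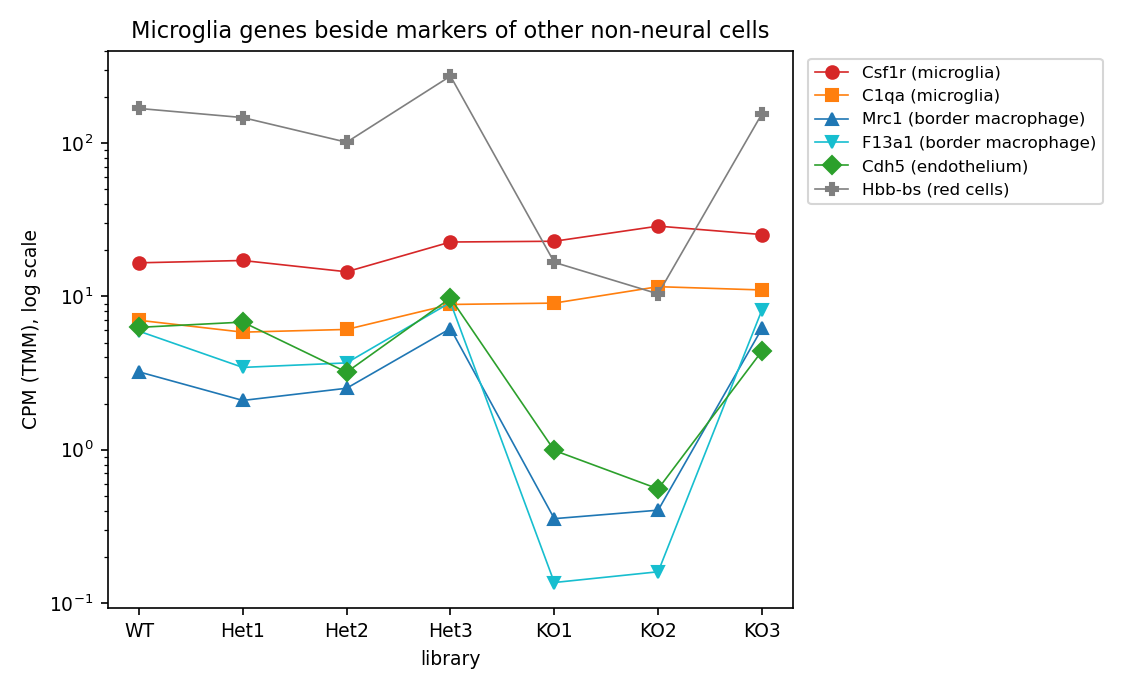
CPM (TMM scaled, log axis) of 2 microglia genes and of markers of border macrophages, endothelium and red cells in each library, with lines joining the points of a gene. Csf1r and C1qa stay at 14.5 to 28.8 and 5.85 to 11.6 CPM, while F13a1 goes from 9.14 CPM in Het3 to 0.136 CPM in KO1.

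Het1 differed from the rest by genes of tissues around the retina. Its muscle genes, led by Myh3, summed to 304 CPM against 8.53 to 11.6 CPM in the other 6 libraries, its pigment epithelium genes, led by Pmel, to 520 CPM against 19.1 to 58.7, and its mesenchyme genes, led by Col1a2, to 424 CPM against 15.9 to 55.2. Its microglia genes, at 54.7 CPM, were between Het2 and Het3, and the part of these tissues in them was not tested. Lens genes, led by Cryaa, ranged from 2.45 CPM in KO1 to 71.7 CPM in Het3. The 8 retinal genes summed to between 2439 and 2586 CPM. Among them the neuronal RNA-binding gene Elavl4 was called lower in KO, at 241 to 263 CPM in Het and 168 to 200 CPM in KO, a call lost without Het2 or Het3.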

How the data were processed

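Bulk RNA-seq counts of embryonic day 16 mouse retina were analysed in 7 libraries, WT (1), Het (3) and KO (3), grouped by genotype and number in the labels. Pools of retinas made the libraries, from total RNA extracted with TRIzol per the labels (the study's methods name a column kit), with a stranded mRNA kit. The authors aligned reads with STAR to GRCm38 (mm10 in the submitters' processing notes) with GENCODE M10 annotation and counted genes with featureCounts. Versions and the strand setting are not given in the sources used here. The deposited values are raw counts per gene, not normalized, with 120593979 to 171117305 counts a library.

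Genes were filtered with filterByExpr and fitted across all 7 libraries with edgeR 4.0.16 (R 4.3.3; TMM, glmQLFit, glmQLFTest), with the contrast KO minus Het and Benjamini-Hochberg adjustment over 20019 genes. A call needed an adjusted p below 0.05 and a fold change over 20%. All adjusted p-values come from this test unless DESeq2 1.42.0 is named. P-values measure the spread between pools. The scripts were tested on simulated data. CPM used TMM effective library sizes, and lengths, coordinates and exon overlaps came from GENCODE M21. Symbols were taken from the count table.

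The members and all other lists were chosen with earlier results of these data known, so no list was given a test. Genes named are the 10 members, from each other list the called genes and the most abundant gene (3 for the microglia, transcription factor, leukocyte, signalling and ligand lists), the 8 genes most like the members with a mean of at least 50 counts, and Ptbp1, with exceptions stated where they occur. Some genes that this rule names are not reported here. Replicates of a group differed by more than counting error (variance 14.0 to 53.2 times that of counting), so none was a copy. Alternatives were other normalizations, filters, DESeq2, a replicate block, and leaving out each Het and KO library. Sums without the most abundant gene of a list were added after seeing the data.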

Additional observations from a re-analysis of the deposited data

How the results depend on the processing

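The direction of all 10 microglia genes was positive in all 14 alternatives, and the median log2 fold change stayed between 0.41 and 0.79. Of the 14, 1 changed only the rule for a call, so its direction could not differ. The other alternatives, those that leave out a library included, refitted all or most of the same libraries and are not separate checks of direction. The summed level in KO over Het was 1.46 and between 1.35 and 1.64 when 1 library was left out, and in Het over WT it was 1.09 and between 0.968 and 1.17. The number of members called was 2, and it was 9 with DESeq2, 1 with no filter on low counts and 0 with the replicate number as a block. Among all genes DESeq2 called 2070 of 17813, and the fit with no filter 1332 of 29515. Leaving out 1 library gave 0 to 1 members called, C1qa without Het3, Cx3cr1 without KO1, and 0 without Het1, Het2, KO2 or KO3. The block was not used for the main values because libraries with the same number did not deviate together for every number. Their correlations were -0.143, 0.249 and -0.0063 for numbers 1, 2 and 3. Pairs with different numbers ran from -0.358 to 0.237, so the value for number 2 was the highest of all pairs. With the block 1268 genes were called in all.

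Over all genes, 1445 were called, 2221 with the adjusted p alone, and 386 to 1673 when 1 library was left out: 386 without Het2, 496 without Het3 and 612 without KO2. In the other lists 11 genes were called, 29 with DESeq2, 20 with the replicate block, and 3 to 40 when 1 library was left out: 40 without KO3, 7 without Het3, 6 without KO2 and 3 without Het2. The causes were not tested. WT had 1 library, so its differences from the other groups have no replicate check. Ptprc had the fewest counts of the members, 63 to 137 a library.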
